A study of Homo sapiens with 12 samples.

Results

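The mutant DROSHA m4 was compared with an empty plasmid to describe the activity it retains: which miRNAs are more abundant when m4 is present than when no DROSHA is supplied. The comparison uses the 3 libraries of m4 and the 3 libraries of the empty plasmid, 6 of the 12 libraries in the series, chosen by their labelled group. All cells were HCT116, a human colorectal carcinoma line, with DROSHA knocked out, and whether the knock-out line is 1 clone is not stated in the labels. All received 4.5 µg of the plasmid pXC-NLS-DG4 together with a pCK plasmid, either empty or coding for DROSHA m4, and for DROSHA plasmids the labels give 4.5 µg. The labels give neither the residues that m4 changes nor the product of pXC-NLS-DG4. Cells given wild-type DROSHA in the same way (3 libraries) serve as the upper reference. The last 3 libraries are of the same knock-out cells given DROSHA with a belt deletion. No test compares them here. The edgeR and limma tests fit all 12 libraries together, so the spread behind their p-values draws on all 4 groups. The labels number the repeats without saying whether they were separate cultures, so p-values measure the spread between these samples.

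DROSHA is the nuclear RNase III enzyme that, with DGCR8 as the Microprocessor, cuts the base of primary miRNA hairpins; the released precursor is exported and cut by DICER into a 5p and a 3p strand. A few hairpins skip this step. Mirtrons such as miR-877, miR-1224 and miR-1226 are released by splicing, and the miR-320a and miR-484 precursors start at a capped transcription start. Such miRNAs give a scale that does not itself depend on DROSHA. Levels below are scaled reads: counts divided by a library factor, the median ratio over the mirtrons miR-1224, miR-1226 and miR-877 together with miR-484 and the miR-320 family.

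The miRNAs that carry the results are these, as RefSeq gives them on GRCh38.p14, 5′ to 3′, with the seed (bases 2 to 8, which pair with target mRNAs) in capitals. The first group is a selection of miRNAs that came near the wild-type level with m4 or had a large rise over the empty plasmid.
miR-27a-5p: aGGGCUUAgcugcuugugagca
miR-27a-3p: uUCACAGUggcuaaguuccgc
miR-27b-3p: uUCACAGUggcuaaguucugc
miR-126-3p: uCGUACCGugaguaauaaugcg
miR-10a-5p: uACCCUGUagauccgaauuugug
let-7c-5p: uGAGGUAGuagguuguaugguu
let-7e-5p: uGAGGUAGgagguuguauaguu
The second group lay far below the wild-type level, apart from miR-222-3p, which is shown beside its neighbour miR-221-3p because both carry the seed GCUACAU.
miR-222-3p: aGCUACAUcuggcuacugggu
miR-221-3p: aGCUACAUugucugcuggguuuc
let-7i-5p: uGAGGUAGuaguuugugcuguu
miR-30a-5p: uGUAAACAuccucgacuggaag
Shared seeds cut across the 2 groups: the let-7 seed GAGGUAG occurs in members near the wild-type level and in the member farthest from it. miR-27a-3p and miR-27b-3p share the seed UCACAGU.

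The hairpins behind 5 of these are printed with the annotated mature arms in capitals, because DROSHA acts on the hairpin and not on the mature strand. For mir-221 the RefSeq table annotates the 3p arm only.
mir-27a: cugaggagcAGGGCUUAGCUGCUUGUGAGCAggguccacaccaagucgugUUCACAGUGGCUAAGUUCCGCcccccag
mir-222: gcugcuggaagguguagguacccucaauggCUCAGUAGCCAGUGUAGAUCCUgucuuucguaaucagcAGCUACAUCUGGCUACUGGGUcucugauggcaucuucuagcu
mir-221: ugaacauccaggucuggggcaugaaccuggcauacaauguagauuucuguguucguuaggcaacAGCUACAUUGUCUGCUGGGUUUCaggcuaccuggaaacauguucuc
let-7c: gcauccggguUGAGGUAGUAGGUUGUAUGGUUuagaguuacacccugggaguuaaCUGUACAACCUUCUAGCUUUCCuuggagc
let-7i: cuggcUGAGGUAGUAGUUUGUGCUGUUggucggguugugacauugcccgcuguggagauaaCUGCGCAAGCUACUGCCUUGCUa
On this build mir-27a lies at chr19:13836440-13836517 on the minus strand, in an exon of AC020916.1. mir-222 (chrX:45747015-45747124, minus strand) and mir-221 (chrX:45746157-45746266, minus strand) both lie in an intron of MIR222HG. let-7c lies at chr21:16539828-16539911 on the plus strand, in an intron of MIR99AHG, and let-7i at chr12:62603686-62603769 on the plus strand, in an intron of AC048341.1.

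The table held 331083, 269550 and 372985 reads for the empty plasmid and 132667, 298695 and 139200 for m4, and 649 to 716 miRNAs were detected in each of these 6 libraries. The miR-320 family took 77.9%, 79.0% and 82.4% of the reads with the empty plasmid. With m4 it took 62.2% and 55.3% in replicates 1 and 3 but 74.4% in replicate 2, and this replicate stood apart from the other m4 libraries toward the empty ones. The values that this library changes are given beside the results. As a ratio of all other miRNAs to the DROSHA-independent ones, the log2 values were -1.94, -2.07 and -2.37 with the empty plasmid and -0.85, -1.65 and -0.43 with m4. The lowest m4 library lay above the highest empty library, and the mean difference of 1.15 (0.57 when miR-320 was left out of the reference) had an exact two-sided permutation p of 0.1, the smallest that 3 against 3 allows.

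After scaling, the 5 reference features themselves differed between m4 and empty by log2 values of 0.42 (miR-1226), 0.28 (miR-1224), -0.05 (miR-877), -0.38 (miR-484) and -0.54 (miR-320). Their scaled levels are plotted by library below. miR-877, the most even of them, stood at 724, 778 and 724 scaled reads with the empty plasmid and at 724, 724 and 699 with m4. miR-320 was 146079, 111266 and 150835 against 67967, 153729 and 76448, so the groups overlapped only through m4 replicate 2. Without that replicate the log2 changes of miR-320a-3p, miR-320b and miR-320c were -0.91, -0.94 and -1.03 and passed the test (edgeR adjusted p of 0.0171, 0.0146 and 0.0169). With all 6 libraries these 3 did not pass it.

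**Figure D1:**
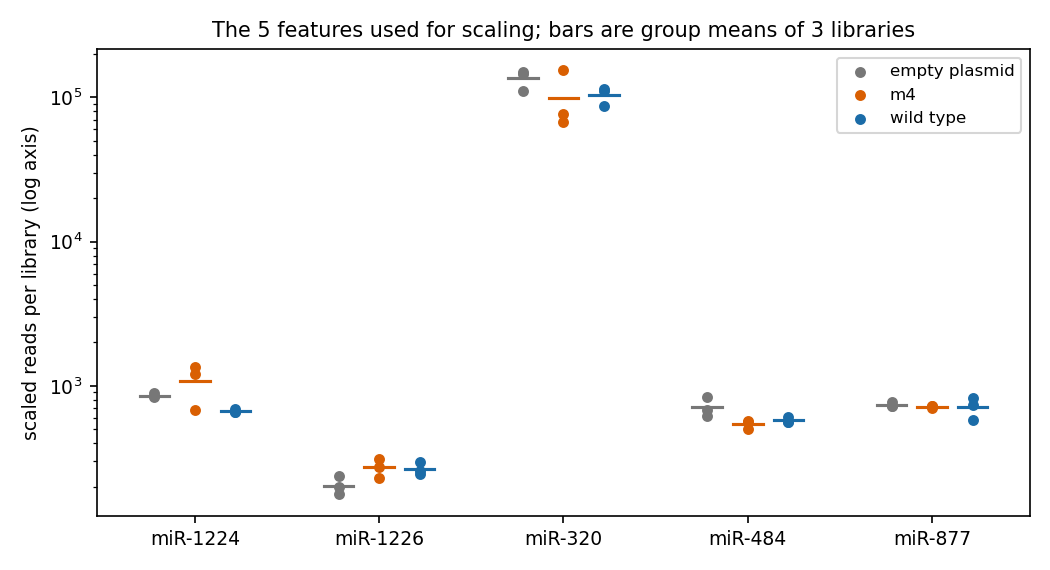
Scaled reads (log axis) of the 5 features used for scaling, one point per library, grouped by plasmid, with a bar at each group mean of 3 libraries. The miR-320 point of m4 replicate 2, at 153729, sits above the other m4 libraries at 67967 and 76448.

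Across all 310 miRNAs tested, 127 rose with m4 (41% of those tested) and 3 fell (0.968%), together 41.9%, at an adjusted p under 0.05 in edgeR's quasi-likelihood test. In 140 of the 310 (45.2%) every m4 library lay above every empty library, and this held for 117 of the 127 that rose. The median rise was 4.24-fold, with quartiles of 3.08 and 7.25. All 127 rises exceeded 0.54 on the log2 scale, the largest deviation of a scaling feature, but this does not bound the error of the scale. These features set the scale themselves, and small changes rarely pass the test. In the DROSHA-independent list miR-1229-3p and miR-320d rose by 1.16 and 2.15, while 13 of the 15 tested members were not called. Of the 127, 66 rose more than 4-fold and 26 more than 8-fold. Counted by hairpin, 112 of 273 had at least 1 miRNA that rose (41.0%). Among the 37 hairpins with both arms tested, both arms rose in 15, 1 arm rose in 7 and neither in 15. The median log2 change over all tested miRNAs was 0.83. With TMM scaling, which assumes that most miRNAs stay level, 84 rose and 19 fell, and 81.6% of calls were rises in place of 97.7%. With DESeq2 size factors 95 rose and 12 fell (88.8%). All 84 and all 95 were among the 127. With total-count scaling 144 rose and with the summed reference 168, and both sets held all 127. Without m4 replicate 2, 130 rose and 7 fell. With only the m4 and empty libraries in the fit 104 rose and 3 fell, and 101 of the 104 were among the 127.

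**Figure D2:**
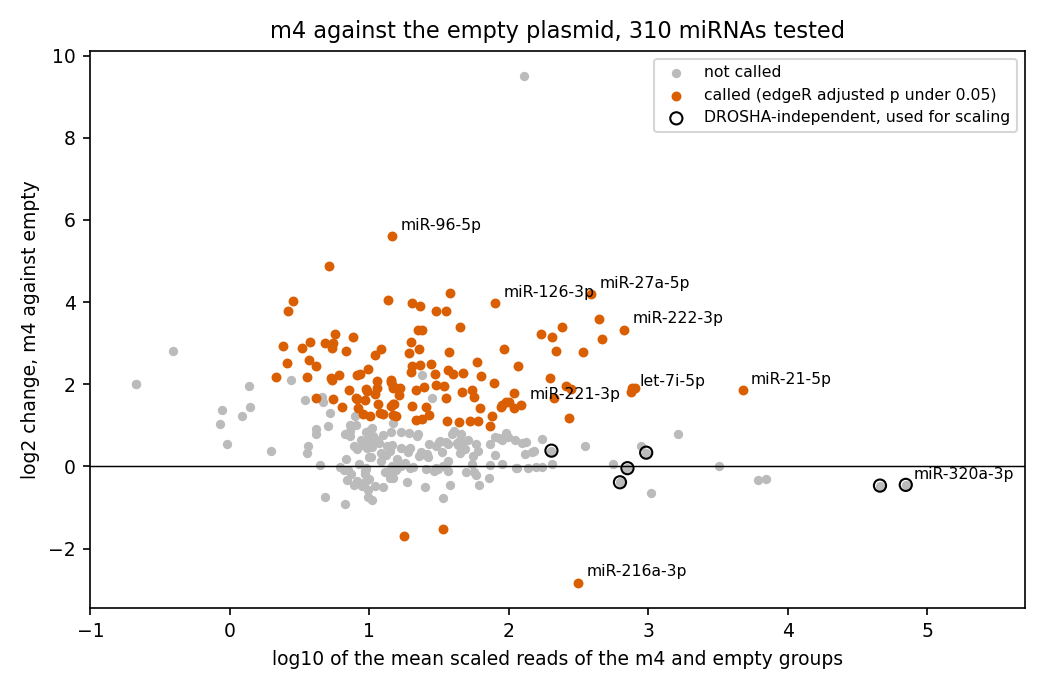
Log2 change of m4 against the empty plasmid (vertical axis) against the log10 mean of scaled reads of both groups (horizontal axis) for the 310 miRNAs tested. Called miRNAs are orange, and black rings mark 6 DROSHA-independent miRNAs whose features set the scale. The 127 rises lie across the abundance range, and miR-216a-3p is the lowest of the 3 falls at -2.83.

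The largest rise among abundant miRNAs was that of miR-27a-5p, the strand opposite the better known miR-27a-3p, a regulator of lipid metabolism and adipogenesis. It had 22.6, 54.9 and 41.8 scaled reads with the empty plasmid and 507, 797 and 903 with m4. Every m4 library was far above every empty one. The fitted log2 change was 4.20 (SE 0.37, edgeR adjusted p = 1.73e-15), and wild-type libraries held 844, 833 and 559, overlapping the m4 values. From the same hairpin, miR-27a-3p had 99.3, 77.2 and 83.7 with the empty plasmid and 662, 526 and 612 with m4, a log2 change of 2.79 (SE 0.34, adjusted p = 6.45e-11). The groups were again fully separate. From the neighbouring hairpin mir-23a of the same cluster, miR-23a-3p went from 3.01, 4.87 and 3.32 to 79.4, 38.8 and 98.5 (log2 change 4.22, SE 0.45, adjusted p = 1.67e-12).

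miR-126-3p, the endothelial miRNA encoded in an intron of EGFL7, had the next largest rise among miRNAs with at least 100 scaled reads. It stood at 12.04, 7.65 and 8.63 scaled reads with the empty plasmid and at 135, 126 and 188 with m4, a log2 change of 3.97 (SE 0.38, edgeR adjusted p = 5.45e-14). The opposite strand miR-126-5p had 0 reads in every empty library and 3.22, 2.77 and 8.96 scaled reads with m4. Against 3 reads summed over the empty group, the limit that a count of 0 allows, its m4 mean of 4.98 was 7.10-fold higher. This ratio leaves out the counting error of the m4 reads. Wild-type libraries held 494.7, 411.9 and 272.7 of miR-126-3p but 1.19, 0 and 1.13 of miR-126-5p, and whether the arm difference between m4 and wild type exceeds counting error was not tested. Both markers of endothelium in the marker list are these 2 strands, and their summed level ran from 7.65 to 12.04 with the empty plasmid, 128 to 197 with m4 and 274 to 496 with wild type.

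miR-10a-5p, which lies among the HOXB genes, had 74.5, 66.8 and 63.1 scaled reads with the empty plasmid and 608, 795 and 1047 with m4. The log2 change was 3.58 (SE 0.36, edgeR adjusted p = 2.04e-13), although wild-type libraries held 7343, 7631 and 3683, far above all m4 libraries. Its paralog miR-10b-5p among the HOXD genes rose by 2.53 (SE 0.36, adjusted p = 1.18e-08). miR-148a-3p, a repressor of DNMT1 and of lipid regulators, went from 124, 97.4 and 71.0 to 458, 950 and 1088 (log2 change 3.09, SE 0.36, adjusted p = 1.92e-11). Its m4 libraries were all above the empty ones and all below wild type, which held 2618, 2277 and 1615. miR-1307-3p rose by 2.86 and let-7g-5p by 2.81. The 12 largest rises among abundant miRNAs, which also include miR-27b-3p, miR-222-3p, miR-183-5p and miR-182-5p, passed the test under all 18 alternatives tried, with log2 changes of at least 1.85. These 12 were picked as the largest non-overlapping calls in the same libraries, by their level with m4. Passing under the alternatives was therefore likely from the start and is no independent support.

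The most abundant miRNAs outside the reference list were not those that rose most. miR-21-5p, an oncogenic miRNA of epithelial tumours, was the highest with m4. It had 2466, 1780 and 1912 scaled reads with the empty plasmid and 5666, 7178 and 9495 with m4. The groups did not overlap, and the log2 change was 1.86 (SE 0.35, edgeR adjusted p = 8.24e-06), yet wild type held 92757, 102758 and 47335, so m4 reached 9.20% of the wild-type mean. miR-3615 and miR-7706 came next, at 6237 ± 1774 and 5396 ± 2247 (SD, n = 3) with m4 against 7760 ± 1876 and 6775 ± 1410 with the empty plasmid. Neither passed the test (adjusted p = 0.452 and 0.445), and their levels were already high without DROSHA. miR-7974 (log2 change 0.02), miR-4521 (0.80) and miR-10399-3p (0.49) likewise did not pass it. miR-4521 passed it only without m4 replicate 2 (1.18, adjusted p = 0.00439) and with the summed reference. miR-100-5p, miR-7-5p and let-7i-5p rose by 1.92, 1.91 and 1.80. TMM and DESeq2 scaling put miR-3615 and miR-7706 below the empty level at an adjusted p under 0.05 (log2 changes of -0.96 and -1.03 with TMM).

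**Figure D3:**
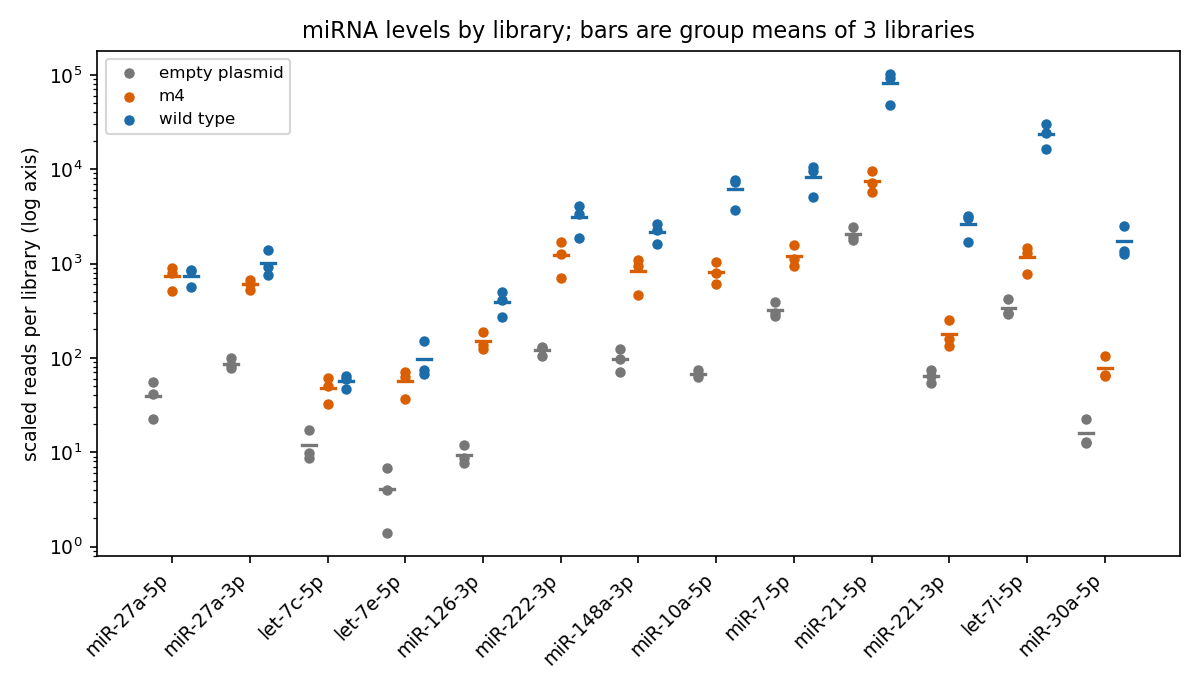
Scaled reads (log axis) of 13 miRNAs, one point per library, with group means of 3 libraries as bars, for the empty plasmid, m4 and wild type. For miR-27a-5p the m4 and wild-type points overlap, and for let-7i-5p and miR-30a-5p the m4 mean is 4.98% and 4.55% of the wild-type mean.

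How far each level lay from wild type was tested directly. m4 was lower than wild type for 106 of the 310 miRNAs (34.2%) and higher for 11 (3.55%), together 37.7%. Among miRNAs that wild type raised and that had at least 100 scaled reads there, the nearest and the farthest were as follows. For miR-27a-5p the m4 mean was 98.7% of wild type, with a log2 difference of -0.02 (SE 0.32, edgeR adjusted p = 0.967). miR-27a-3p was at 59.0% (log2 difference -0.76, adjusted p = 0.0474). That call was lost without m4 replicate 2 (-0.68), m4 replicate 3 (-0.78) or wild-type replicate 1 (-0.47). miR-4521 was at 74.8%, miR-423-5p at 66.8% (its rise over the empty plasmid, 0.99, was 0.93 without m4 replicate 2, 0.79 without empty replicate 1 and 0.89 without empty replicate 3, not called in any of these), miR-181a-5p at 48.8% (its log2 difference of -1.04 was -0.83 without m4 replicate 2 and -0.93 without wild-type replicate 1, not called in either) and let-7a-5p at 44.0%. At the other end, miR-30a-5p was 12.8, 22.3 and 12.6 with the empty plasmid, 64.4, 66.5 and 104 with m4 and 1359, 2529 and 1263 with wild type. It rose over the empty plasmid (2.29, adjusted p = 1.39e-07) and differed from wild type by -4.46 on the log2 scale (adjusted p = 7.49e-17). miR-99b-3p, miR-221-3p, miR-30e-5p and miR-378c were between 6.21% and 7.79% of wild type. Wild type raised 132 of the 310 over the empty plasmid (42.6%) and lowered 2 (0.645%), together 43.2%. Over these 132, m4 reached a median of 25.2% of the wild-type level, with quartiles of 15.1% and 42.5%. Of these, 24 were at 50% or more and 18 under 10%. These shares use the wild-type libraries that also chose the 132, so they are a description.

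The let-7 family, which represses LIN28 and RAS genes, includes members at very different distances from wild type. Of 10 strands tested 8 rose with m4 over the empty plasmid and none fell, where 41% of all tested rose, and the median log2 change was 1.90 against 0.83 over all tested. Wild type raised all 10. Of the 10, let-7a-3p is the opposite strand and does not carry the let-7 seed. let-7c-5p had 9.78, 17.4 and 8.63 scaled reads with the empty plasmid, 32.2, 49.9 and 61.4 with m4 and 46.4, 64.8 and 59.7 with wild type. Its m4 and wild-type libraries overlapped, with a log2 difference of -0.25 (SE 0.38, edgeR adjusted p = 0.651), an interval too wide to show equal levels. let-7e-5p had 6.77, 1.39 and 3.98, then 36.5, 62.8 and 70.4, then 74.9, 149 and 67.6. The groups of m4 and wild type again overlapped (-0.77, SE 0.39, adjusted p = 0.111). let-7i-5p was the opposite case, with 417, 291 and 298 for the empty plasmid, 773, 1282 and 1456 for m4, and 29934, 24201 and 16381 for wild type. Its m4 libraries were above every empty library and differed from wild type by -4.33 on the log2 scale (SE 0.37, adjusted p = 1.88e-16).

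The other members lay between these. Relative to wild type the log2 differences were -1.18 for let-7a-5p, -1.52 for let-7b-5p, -1.96 for miR-98-5p, -2.14 for let-7g-5p, -2.45 for let-7f-5p and -2.66 for let-7d-5p, all at an edgeR adjusted p under 0.05. let-7d-5p and let-7a-3p were the 2 that did not pass the test over the empty plasmid (1.02 and 0.05); let-7d-5p passed it without m4 replicate 2 (1.56). In the RefSeq hairpins the number of bases between the annotated arms was 23 in let-7c, let-7e and let-7a-2, 26 in let-7a-3 and 29 in let-7a-1. It was 32 in let-7b and let-7d, 34 in let-7f-1 and let-7i, 35 in let-7g and 36 in mir-98. These lengths were set beside the levels after the values were seen, no relation was tested, and nothing is read from them. let-7a-5p comes from 3 hairpins whose reads cannot be told apart, and how the counting divided reads between near-identical let-7 members is not stated.

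**Figure D4:**
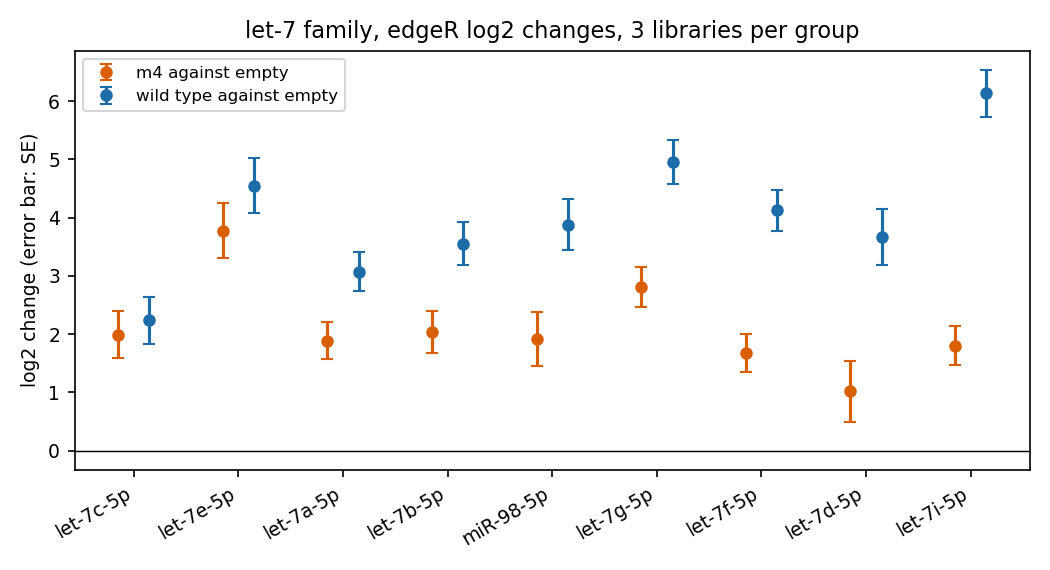
Log2 changes (points, with standard errors as bars) of 9 let-7 family members for m4 against empty (orange) and wild type against empty (blue), 3 libraries per group. Both comparisons share the empty libraries; the 2 values of let-7c-5p are 1.99 and 2.24, and those of let-7i-5p are 1.80 and 6.13.

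Members of 1 cluster, cut from the same primary transcript, also differed, and their ratio within a library needs no scaling. miR-222-3p and miR-221-3p repress CDKN1B and KIT. miR-222-3p had 129, 130 and 105 scaled reads with the empty plasmid and 710, 1687 and 1266 with m4 (log2 change 3.33, SE 0.36, edgeR adjusted p = 2.07e-12). miR-221-3p had 74.5, 54.2 and 64.4, then 134, 160 and 250 (1.49, SE 0.33, adjusted p = 0.000129). Both rose without overlap, the first by much more. The log2 ratio of miR-222-3p to miR-221-3p was 0.79, 1.26 and 0.70 with the empty plasmid, 2.40, 3.40 and 2.34 with m4, and 0.37, 0.12 and 0.11 with wild type. All m4 libraries were above all empty and wild-type libraries. The belt-deletion libraries held 3295, 2492 and 4058 reads of miR-222-3p and 924, 498 and 817 of miR-221-3p. A ratio above wild type was thus not particular to m4, and it was not tested for the belt deletion. Of 13 within-cluster ratios tested between m4 and empty, that of miR-222-3p to miR-221-3p was the 1 that passed (7.69%). Its difference was 1.80 (SE 0.34, limma adjusted p = 0.00169). Against wild type the difference was 2.51 (SE 0.38, limma adjusted p = 0.000316), 1 of 2 that passed among 24 (8.33%). The number passing against empty was 3 without m4 replicate 2 or without empty replicate 3, and 2 without empty replicate 2. The clusters were chosen after results of these data had been seen.

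The other ratio that passed against wild type was that of miR-93-5p to miR-25-3p, neighbours in an intron of MCM7. Its log2 values were -2.65, -2.79 and -2.11 with the empty plasmid, -2.32, -2.76 and -2.49 with m4 and -1.11, -0.49 and -0.72 with wild type. m4 overlapped the empty libraries (difference -0.01, limma adjusted p = 0.972) and differed from wild type by -1.75 (SE 0.37, limma adjusted p = 0.00458). miR-93-5p and miR-25-3p rose over the empty plasmid by log2 changes of 1.510 and 1.501. For miR-23a-3p to miR-27a-5p the ratio was -3.40 with m4 and -2.05 with wild type (limma adjusted p = 0.0592), which did not pass. miR-183-5p and miR-182-5p had a ratio of -0.26 with m4, against -0.30 (empty) and -0.47 (wild type), in log2.

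**Figure D5:**
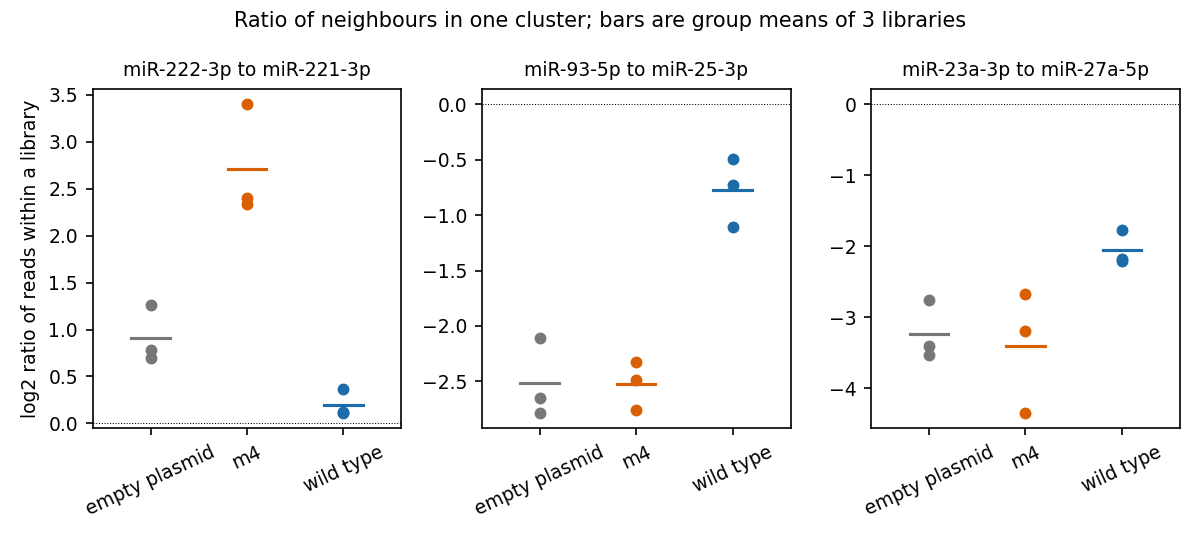
Log2 ratio of the reads of 2 cluster neighbours within each library (points), with group means of 3 libraries as bars, for the empty plasmid, m4 and wild type. The miR-222-3p to miR-221-3p ratio has its 3 highest values with m4 (2.34 to 3.40), while the miR-93-5p to miR-25-3p ratio of m4 overlaps the empty plasmid.

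Among the other families, the miR-23/27/24 family had 8 of 8 tested members higher with m4 than with the empty plasmid (median log2 change 2.68), where 41% of all tested were higher and the median was 0.83. The miR-24-2-5p call, at 0.69 against 3.57 scaled reads, was the weakest of them and was lost in 9 of the alternatives, among them the fits without m4 replicate 1 (1.77), empty replicate 1 (2.21) and empty replicate 2 (1.65). The growth-promoting miR-17-92 group and its paralogs had 7 of 7 higher (median 2.44) against the same 41%, from miR-92a-3p at 1.41 to miR-17-5p at 3.32. miR-106b-5p, at 7.08 scaled reads with m4, lost its call without empty replicate 2 (1.89). All 3 members of the sensory-organ cluster miR-183/96/182 rose. miR-96-5p had 0.75, 0.70 and 0 scaled reads with the empty plasmid and 32.2, 22.2 and 32.0 with m4, but rests on 2 reads in the empty group, so its log2 change of 5.61 (SE 0.62, edgeR adjusted p = 3.12e-12) is imprecise. miR-183-5p and miR-182-5p rose by 3.21 and 3.14. Wild type raised 8 of 8, 7 of 7 and 3 of 3 tested members of these 3 lists over the empty plasmid, against 42.6% of all tested. The counts are therefore not particular to m4.

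The miR-10 superfamily, which includes miR-100 and miR-125, had 9 of 10 higher (median 1.94), against 41% of all tested (median 0.83). Wild type also raised 9 of the 10 over the empty plasmid. miR-125b-5p stood at 54.5 ± 9.37 with m4 and 61.8 ± 24.5 with wild type (SD, n = 3), a log2 difference of -0.17 (SE 0.40, edgeR adjusted p = 0.763). The calls of miR-99a-5p and miR-99b-3p each depended on single libraries. miR-99a-5p lost its call without m4 replicate 2 (1.25) or empty replicate 2 (1.41), and miR-99b-3p without m4 replicate 3 (1.02) or empty replicate 3 (1.46). For the miR-30 family 7 of 9 were higher (median 1.80), against the same 41%, and wild type also raised 7 of the 9. All but miR-30c-1-3p were called lower than wild type. miR-30c-1-3p lay at 70.9% of wild type without passing the test (log2 difference -0.44, edgeR adjusted p = 0.567). miR-30e-3p lost its call over the empty plasmid without m4 replicate 2 (0.96), m4 replicate 3 (0.99), empty replicate 2 (1.09) or empty replicate 3 (1.02). The 2 arms of mir-30a differed in their distance from wild type: miR-30a-3p was at 37.7% and miR-30a-5p at 4.55%. This difference between arms was not tested, and these reads may be shared with other family members.

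The miR-200 family, which maintains epithelial identity by repressing ZEB1 and ZEB2, had 5 of 5 tested members higher with m4 (median 1.29), against 41% of all tested (median 0.83). miR-200c-3p had 51.9, 45.2 and 39.2 scaled reads with the empty plasmid and 95.5, 103 and 123 with m4 (1.24, SE 0.38, edgeR adjusted p = 0.00541). Wild-type libraries held 67.8, 73.8 and 49.6, all below the m4 libraries, but the difference from wild type did not pass (0.75, adjusted p = 0.109). None of the 5 passed the test against wild type, and the median m4 level was 149% of wild type. Wild type itself raised 2 of the 5 over the empty plasmid. With TMM or DESeq2 scaling 1 of the 5 was still called higher than empty. The calls of miR-200a-3p, miR-200a-5p and miR-429 were each lost without at least 1 library: miR-200a-3p without empty replicate 2 (1.07), miR-200a-5p without m4 replicate 3 (0.95), empty replicate 2 (0.85) or empty replicate 3 (1.17), and miR-429 without m4 replicate 3 (0.92), empty replicate 1 (1.30) or empty replicate 2 (1.41).

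The counts in smaller lists stand against the 41% of all tested miRNAs that rose, and several are near it. In smaller families 3 of 3 tested members rose for miR-148 and 2 of 3 for miR-181, 3 of 4 for miR-221 with its neighbour, 2 of 2 for miR-26, 2 of 3 for miR-378, 2 of 2 for miR-29, 2 of 2 for miR-16, 2 of 3 for miR-28 with miR-151a, and 0 of 2 for the miR-424 cluster. In each of these families wild type raised at least as many tested members over the empty plasmid. Single libraries decided some of the calls of m4 against empty: miR-148a-5p was not called without m4 replicate 1 (2.52) or empty replicate 2 (2.43), miR-221-5p without m4 replicate 3 (0.84), and miR-29b-3p without m4 replicate 1 (2.76), m4 replicate 3 (2.33) or empty replicate 2 (2.48). In miR-181, miR-181a-5p and miR-181a-3p rose by 3.78 and 3.90, while miR-181b-5p, at 3.01 and 5.34 scaled reads, had a log2 change of 0.80 (edgeR adjusted p = 0.309). With TMM or DESeq2 scaling 0 of the 2 miR-16 strands was called. miR-16-5p was also not called without m4 replicate 2 (2.08), m4 replicate 3 (1.63), empty replicate 2 (1.63) or empty replicate 3, nor miR-16-2-3p without empty replicate 1 (0.82). The tumour suppressor miR-34a-5p, a p53 target, had a mean of 0 scaled reads with the empty plasmid, 0.78 with m4 and 19.5 under wild type, and 1 of 3 p53-linked miRNAs, miR-192-5p, rose. That call was lost without m4 replicate 2 (1.55), m4 replicate 3 (1.26), empty replicate 2 (1.21) or empty replicate 3 (1.87). Among the snoRNA- or tRNA-derived small RNAs 1 of 6 (miR-1260b) was called, and it was lost without m4 replicate 1 (1.18), empty replicate 1 (1.37) or empty replicate 3 (1.51).

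As markers of the labelled cells, all 7 tested miRNAs of the colon epithelium list rose, 4 of them miR-200 members counted above, against 41% of all tested, and 3 of the 7 were called with TMM or DESeq2 scaling. Summed scaled reads of that list were 1875 to 2594 with the empty plasmid and 5896 to 9863 with m4, most of it miR-21-5p. The neuronal miR-9-5p and miR-128-3p also rose (1.82 and 1.44). The difference of miR-9-5p from wild type did not pass the test (log2 difference 0.06, SE 0.38, edgeR adjusted p = 0.912), with an interval too wide to show equal levels. Neuron-list sums were 29.9 to 38.4 and 82.6 to 143. The liver marker miR-122-5p (-0.28), miR-143-3p of smooth muscle and fibroblasts (0.37) and the pancreatic miR-216a-5p and miR-375-3p (0.22 and 1.57) did not pass the test. No member of the blood or muscle lists had enough reads to be tested. The part of other cell types in these results was not tested.

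In the DROSHA-independent list, which also holds miRNAs too scarce to set the scale (among those tested miR-1236, miR-1229, miR-1228 and miR-1227), 13 of 15 tested members were not called and 2 rose, against 41% of all tested: miR-320d (2.15, edgeR adjusted p = 0.0242) and the mirtron miR-1229-3p (1.16, adjusted p = 0.0218). The tested members other than these scarce ones belong to the features that set the scale. Their staying near level was in large part fixed by the scaling, so setting 2 of 15 against 41% is no support. Of the scarce members miR-1229-3p alone was called. miR-320d lost its call without m4 replicate 2 (1.98), m4 replicate 3 (2.21) or empty replicate 2 (2.27), and its reads may be shared with the near-identical miR-320a, b and c. miR-1229-3p lost it without m4 replicate 1 (0.94), m4 replicate 3 (1.07), empty replicate 1 (1.04) or empty replicate 2 (1.16). With TMM scaling none of the 15 rose and 5 were lower.

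Falls were few: the 3 called miRNAs stand beside 4 with an unadjusted p under 0.05 in edgeR and a negative change. miR-216a-3p had 733, 466 and 455 scaled reads with the empty plasmid and 42.9, 73.0 and 118 with m4. Every m4 library was below every empty one, the log2 change was -2.83 (SE 0.57, edgeR adjusted p = 0.00112), and wild-type libraries held 55.9, 36.0 and 24.8. The opposite strand miR-216a-5p was not called, at 14.3, 6.95 and 7.30 against 12.9, 11.1 and 8.96. miR-6747-3p (-1.53) and miR-6808-3p (-1.69), named because they complete the count, were the other 2. miR-6808-3p lost its call without m4 replicate 1 (-1.24) or empty replicate 3 (-1.23).

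The balance of the 2 arms of a hairpin was tested in 46 hairpins, and 4 changed between empty and m4 (8.7%). Against wild type 3 differed (6.52%), mir-183, mir-99b and let-7i. For let-7i and mir-183 the 3p strand had 0 to 3 reads in each m4 and wild-type library, so these ratios follow the 5p strand, and for mir-99b the 3p strand had 2, 6 and 9 reads with m4. In mir-222 the 3p strand made up 92.4%, 85.0% and 86.8% of the reads with the empty plasmid and 96.1%, 99.1% and 98.5% with m4. The groups were separate, and the log2 ratio of 5p to 3p differed by -2.85 (SE 0.63, limma adjusted p = 0.0196), with a wild-type share of 98.6% ± 0.51 (SD, n = 3). In mir-216a the 3p share moved the other way, from 98.1%, 98.5% and 98.4% to 76.9%, 86.8% and 92.9% (log2 ratio difference 3.18, SE 0.81, limma adjusted p = 0.0284). Both calls depended on single libraries. mir-222 was not called without m4 replicate 2 (-2.38), empty replicate 2 (-2.64) or empty replicate 3 (-2.74), and mir-216a was called only when m4 replicate 3 was the library left out. The calls for let-7g and mir-10a rest on a 3p strand with 0 to 3 reads in each of the 6 libraries, so their ratio follows the 5p strand. mir-27a had 81.5%, 58.4% and 66.7% on the 3p strand with the empty plasmid and 56.7%, 39.7% and 40.4% with m4. These shares did not overlap, but the difference did not pass the test (limma adjusted p = 0.160).

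Among the 362 miRNAs with 0 reads in every empty library, the highest after miR-126-5p were miR-324-3p, miR-18a-5p, miR-424-5p and miR-651-5p, with m4 means of 2.99, 2.92, 2.75 and 2.63 scaled reads. These means were 4.25, 4.16, 3.92 and 3.75 times the limit for the empty group. The ratios leave out the counting error of the few m4 reads, and these miRNAs were picked for their high m4 means, so they are no lower bounds. miR-324-3p came from 1 of the 3 m4 libraries and the other three from 2 of them. None of these was abundant enough to enter the test.

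The 11 miRNAs higher with m4 than with wild type were most abundant in miR-3182, which had 111, 103 and 98.9 scaled reads for the empty plasmid, 533, 267 and 422 for m4 and 142, 227 and 114 for wild type. It was above wild type by a log2 value of 1.35 (SE 0.37, edgeR adjusted p = 0.00202) with no overlap. The other 10 were miR-10525-3p, miR-1257, miR-3913-3p, miR-3917, miR-4645-3p, miR-4743-5p, miR-6505-5p, miR-6515-5p, miR-6761-5p and miR-6842-3p, with m4 means of 13.1 to 134 scaled reads. They were named after their values were seen. Their number depended on scaling and on single libraries: it was 2 without m4 replicate 3 and 30 without m4 replicate 1, and 133 with total-count scaling. miR-1268a shows what 1 library can do: its 829 reads in m4 replicate 2 against 0 in the other 2 m4 libraries gave a log2 change of 9.50 that did not pass the test (adjusted p = 0.120).

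Hairpin properties were set against the m4 levels. Over 83 of 91 hairpins with RefSeq sequence, Spearman's rho of the log2 difference between m4 and wild type was 0.15 with GC content, -0.04 with folding energy per base and -0.02 with the size of the apical loop in the RNAfold structure. These hairpins share all libraries and their scaling, the wild-type libraries also chose them, and the values are a description. For the number of bases between the arms rho was -0.18, further from 0 than the other 3 values. It rests on 71 of the 91 hairpins (78.0%), fewer than the others, and nothing is read from it.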

How the data were processed

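The 12 libraries, 3 for each of 4 plasmids, hold small RNAs that a 15% gel separated at 19 to 24 nt (10 µg RNA as input), per the labels' protocols. The authors deposited 1 line of whole-number counts for each hairpin and mature name, and these counts show no normalization. The authors used cutadapt and Bowtie2 on hg38, per the submitters' processing notes; settings, annotation and how multiply matching reads were counted are not given in the sources used here, so near-identical miRNAs (let-7, miR-30, miR-320, miR-378) are uncertain. Blank cells (7220 of 16908) were read as 0. Of lines with 1 mature name the line with the most reads was kept, and 9 names whose counts equalled another's (within 5 reads or 5% in each library, more than 120 in total) were merged into it. This left 1277 miRNAs, with 101886 to 275834 reads in the 6 libraries compared; counting error therefore limits miRNAs with few reads.

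Size factors were median ratios over 5 DROSHA-independent features, each holding 20 or more reads per library. Counts were tested with edgeR 4.0.16 (R 4.3.3, quasi-likelihood F test, robust, filterByExpr, 12 libraries in 1 fit), with Benjamini-Hochberg adjustment over 310 miRNAs. Standard errors come from the F statistic and the log2 change. Ratios of arms (at least 30 reads over both arms in each m4 and empty library) and of cluster neighbours (at least 3 reads in each library compared) were tested with limma 3.58.1 on log2 values with a pseudocount of 0.5. DESeq2 1.42.0 was an alternative, as were other scalings, filters, the replicate block and leaving out each library. Structures were folded with RNAfold 2.7.2. RefSeq sequences matched 271 of the 310 tested miRNAs, and host genes are from GENCODE. Tested on simulated data for m4 against empty, edgeR recovered 58.6% of 2-fold, 93.8% of 4-fold and 100% of 8-fold changes, and called 2.92% of 137 unchanged miRNAs. The simulation gave all miRNAs the same dispersion and changed none of the scarcest. It also kept the reference features level apart from random spread. The real libraries need not meet these settings, so the rates hold for the simulation only.

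The members and lists were chosen with earlier results of these data known. Named miRNAs are, among non-overlapping calls whose higher group averages 100 scaled reads or more, the 12 largest rises and up to 6 falls; the 10 most abundant with m4; the scaling features and miR-320 family; the 6 nearest to and 6 farthest below wild type; up to 5 with 0 reads with the empty plasmid; opposite arms; members of the lists; and hairpins with a called arm ratio.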

Additional observations from a re-analysis of the deposited data

How the results depend on the processing

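Over 133 miRNAs, 2205 of 2371 values of m4 against empty counted as unchanged under the alternatives, 119 lost the call and 47 gained it. Of the called changes 0 reversed. For a miRNA not called in the main fit a change of sign also counted as unchanged. These counts therefore do not measure whether its direction held. The log2 change of miR-143-3p, for example, ran from -0.36 to 0.996. Against wild type 3 reversed, all with total-count scaling: miR-17-5p to 0.18, miR-181a-5p to 0.080 and miR-27a-3p to 0.34. The number higher with m4 than empty was 84 with TMM; the number lower was 19 with TMM, 12 with DESeq2 size factors and 1 with the summed reference, and 2 to 7 when 1 library was left out. The number higher with m4 than wild type was 43 (TMM), 39 (DESeq2 size factors), 133 (total counts), 6 (summed reference), 7 (reference without miR-320), 6 (no filter), 7 (only the 2 groups) and 2 to 30 with 1 library left out; 60 were lower with total counts. For wild type against empty the number lower was 93 (TMM), 68 (DESeq2 size factors), 71 (total counts), 1 (summed reference) and 1 to 7 with 1 library left out. The scalings moved the median change of m4 against empty by -0.65 (TMM), -0.47 (DESeq2 size factors), 0.25 (total counts) and 0.60 (summed reference). Arm-ratio calls were 1 with at least 100 reads, 2 with shared hairpins kept and 0 to 4 with 1 library left out; cluster-ratio calls against wild type were 4 with a pseudocount of 1, and those against empty 1 to 3 with 1 library left out. The cause of these shifts was not tested. The filter on scaled library sizes and the alternatives for cluster ratios were added after the data had been seen.

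With the replicate number as a block 127 were higher and 3 lower with m4 than empty, 126 of the 127 the same miRNAs. Against wild type 9 were higher and 103 lower. For wild type against empty 132 were higher and 2 lower. Same-numbered m4 and empty libraries deviated together with correlations of 0.04, 0.08 and -0.13, and 1 of the 3 m4 libraries correlated best with its own number.

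The scale assumes that the DROSHA-independent features stay level between plasmids, which these data cannot show. Leaving out a library reduces the samples to 2 in that group.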
